A study of Homo sapiens with 6 samples.

Results

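The genes of cholesterol and fatty acid synthesis were compared between TKT-overexpressing and vector control Huh7 cells, and 34 of the 22077 gene symbols of the deposited table belong to them. They comprise 19 genes of the sterol branch, 9 of the fatty acid branch and 6 regulators around the transcription factors SREBP1 and SREBP2. STARD4, a sterol carrier, was placed with the regulators. All 34 genes were chosen by symbol, with results of this same comparison known. Their counts and medians are therefore a description of the chosen genes. Each adjusted p-value places a gene among all tested genes rather than testing the group. Of the 34 genes, 33 passed the filter on low counts, and NSDHL did not, with 2 counts in 1 TKT-overexpressing culture and none in the other 5 cultures.

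Huh7 cells are an established human hepatoma line. The labels spell the line Hu7, the study's Methods name HCCLM3 for the sequencing, and the libraries were taken as Huh7 here. The labels give the genotypes as over-expression (3 cultures) and wt (3 cultures), which are called TKT-overexpressing cells and control cells. The control samples are titled VC, read here as vector control, while the study's text names them only as controls. Whether they carried an empty plasmid and were selected is therefore uncertain. A plasmid encoding transketolase (TKT), an enzyme of the pentose phosphate pathway that exchanges carbon fragments between sugar phosphates, was transfected and the cells were selected, and the labels describe each library as a replicate biosample without saying how far the cultures were kept apart, so the p-values measure the spread between these samples. Libraries held between 30148788 and 37096156 counts. TKT, at chr3:53224707-53256052 (GRCh38), had 469 to 515 CPM (counts relative to the TMM-scaled library total) in control cells and 9392 to 9549 in TKT-overexpressing cells, so the labels matched the targeted gene. All 10 hepatocyte markers had a mean over 1 FPKM, and their summed FPKM lay between 6233 and 6374 in control and between 6381 and 6512 in TKT-overexpressing cells. Of the 7 measured markers of other cell types, LYZ (66.0 to 89.8 FPKM) and PECAM1 (1.95 to 2.62 FPKM) had a mean over 1 FPKM. Among the hepatocyte markers, FGB (log2 fold change 0.50, adjusted p = 8.85e-10) and FOXA2 (0.35, adjusted p = 8.60e-05) rose and HNF4A (-0.15, adjusted p = 0.00720) and APOA2 (-0.13, adjusted p = 0.0274) fell, while ALB and AFP, which make up most of the sum, were not called. LYZ fell with TKT (log2 fold change -0.35, adjusted p = 1.71e-05), and the summed level of these markers was 85.5 to 92.5 FPKM in control and 68.0 to 73.6 FPKM in TKT-overexpressing cells. The part of these marker changes in the results was not tested. In bulk RNA, fewer cells expressing a gene and less RNA per cell cannot be told apart.

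Cells build cholesterol and fatty acids from acetyl-CoA along separate routes. When membranes of the endoplasmic reticulum hold much sterol, INSIG proteins keep SCAP and the SREBP precursors there, and when sterol is low, SCAP escorts the precursors to the Golgi, where proteases release their active part. SREBP2 is best known for driving genes of sterol synthesis and SREBP1 for driving genes of fatty acid synthesis, and the liver is a main site of both routes.

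Most of these genes had less RNA on TKT overexpression. At an adjusted p-value under 0.05, 20 of the 33 tested genes fell, none rose, and 13 were not called in edgeR's quasi-likelihood test. Over all 14162 tested genes, 4.94% fell and 5.69% rose at the same threshold. The median SE was 0.0549 for the 33 genes and 0.0930 for all tested genes, so small changes could be called more readily among the 33. In the edgeR fit with TMM scaling no member had an unadjusted p under 0.05 for a rise, and 22 had one for a fall. None had one for a rise in DESeq2, and 1 did in edgeR with upper-quartile scaling. The estimates were below 0 for 32 genes and above 0 for 1, INSIG2. The median log2 fold change was -0.27, within a range of -0.72 to 0.20, and the median of all tested genes was 0.0008. In 26 of the 33 genes every TKT-overexpressing culture was below every control culture, which held for 13.9% of all tested genes. The changes were small, and no member reached an absolute log2 fold change over 1, the fold threshold of the study, which 0.727% of all tested genes passed together with the adjusted p-value. The sterol branch had 11 genes that fell among 18 tested (median -0.27) and the fatty acid branch 6 among 9 (median -0.31). The regulators had 3 among 6 (median -0.23), and 1 of these 3 was the sterol carrier STARD4. SREBF2, SCAP and INSIG2 were not called, with log2 fold changes of -0.06, -0.05 and 0.20. The regulator median thus rests in part on STARD4.

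**Figure D1:**
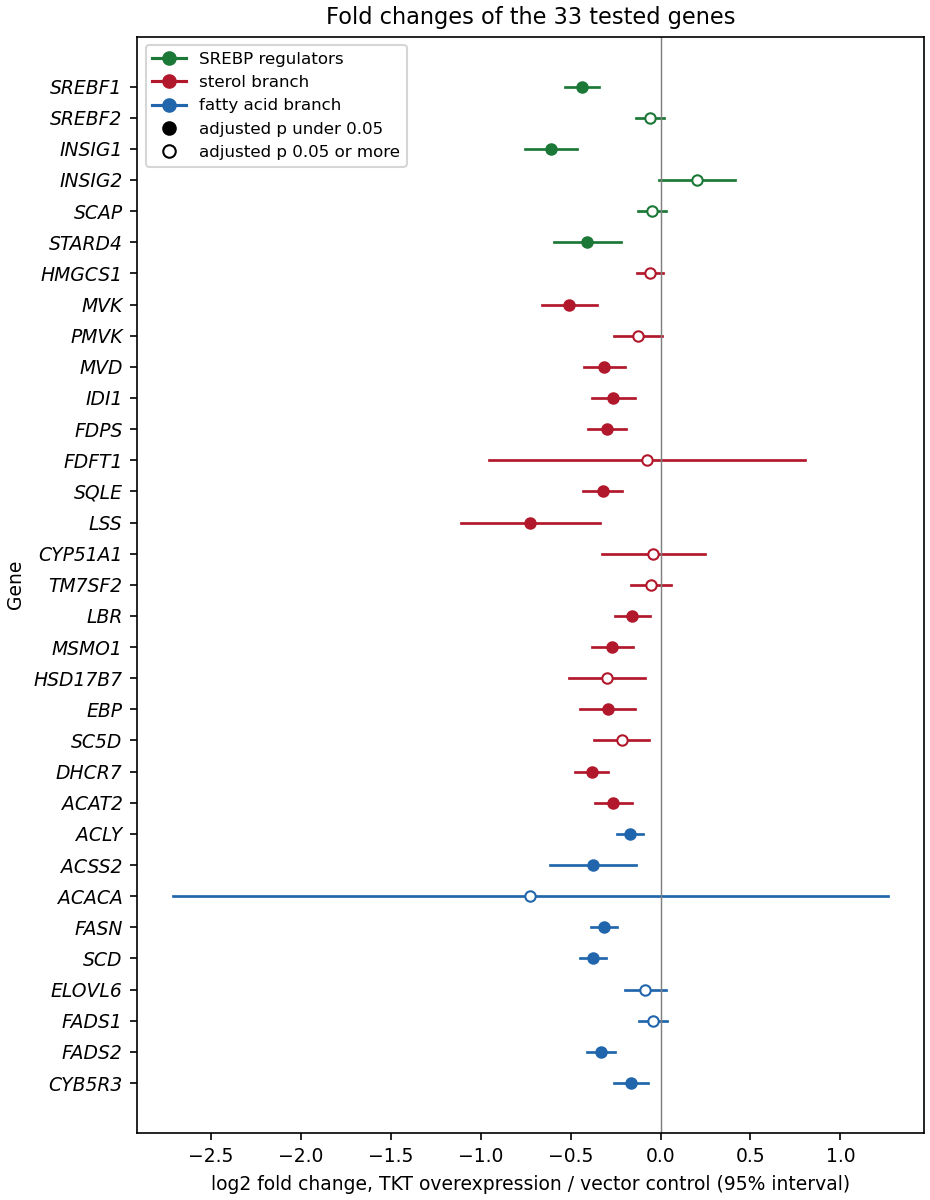
Each point is the log2 fold change of TKT-overexpressing over control cells for 1 gene, with its 95% interval from edgeR, coloured by branch and filled where the adjusted p-value was under 0.05. The 20 filled points all lie below 0, and the intervals of ACACA and FDFT1 are the widest.

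In control cells the highest level per transcript length belonged to SCD, with 322 ± 7.69 FPKM (SD, n = 3). FASN followed with 105 ± 2.85 FPKM and ACLY with 92.7 ± 2.03 FPKM. HMGCS1 (60.9 ± 1.22 FPKM), ACAT2 (59.3 ± 1.49 FPKM) and EBP (58.9 ± 6.31 FPKM) came next and did not differ from each other beyond their spread. At the lower end, CYP51A1, LSS, ACACA and FDFT1 had control means of 1.89, 1.54, 0.644 and 0.133 FPKM. Summed over all 34 genes, the control cultures held 6569, 6466 and 6436 CPM and the TKT-overexpressing cultures 5449, 5437 and 5381 CPM. The sums did not overlap, and the mean with TKT was 83.5% of the control mean. SCD carried the largest share of this sum, and without it the mean with TKT was 85.9% of the control mean.

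Among the regulators, SREBF1, which encodes SREBP1, fell. It lies at chr17:17810399-17837002 on the minus strand of GRCh38. The control cultures had 157, 145 and 149 CPM of SREBF1, and the TKT-overexpressing cultures 115, 108 and 110 CPM. The groups did not overlap, and the log2 fold change was -0.44 (SE 0.0465, adjusted p = 1.06e-06), a level 26.2% below control. The counts per gene do not separate its transcripts SREBP1a and SREBP1c. SREBF2, which encodes SREBP2, had 283, 268 and 268 CPM in control and 268, 260 and 259 CPM in TKT-overexpressing cells. The highest TKT-overexpressing culture lay just under the lowest control culture, and the log2 fold change of -0.06 (95% interval -0.14 to 0.02, adjusted p = 0.377) was not called. Within each culture the log2 ratio of SREBF1 to SREBF2 on the FPKM scale was -0.88, -0.92 and -0.88 in control and -1.25, -1.30 and -1.27 with TKT. This ratio and those below set a gene that fell over 1 that was not called, chosen after the values were seen.

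INSIG1 and INSIG2 encode the proteins that retain SCAP, and INSIG1 is a known target of SREBP. INSIG1, at chr7:155297776-155310235 on the plus strand, had 33.9, 35.8 and 36.5 CPM in control and 23.4, 23.0 and 23.2 CPM in TKT-overexpressing cells. The TKT-overexpressing cultures were close together and all below the control cultures. Its log2 fold change of -0.61 (SE 0.0696, adjusted p = 2.81e-06) corresponded to a level 34.6% below control. INSIG2 went the other way in its estimate, with 13.1, 12.9 and 11.4 CPM in control and 14.5, 14.8 and 13.8 CPM with TKT. The groups did not overlap, but the log2 fold change of 0.20 (95% interval -0.01 to 0.41, adjusted p = 0.242) was not called. The log2 ratio of INSIG1 to INSIG2 on the FPKM scale was 1.48, 1.59 and 1.79 in control and 0.80, 0.75 and 0.86 with TKT.

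SCAP, the sterol sensor that escorts the SREBP precursors, had 225, 222 and 234 CPM in control and 218, 221 and 220 CPM in TKT-overexpressing cells. The groups were separate by a small margin, and the log2 fold change was -0.05 (95% interval -0.13 to 0.03, adjusted p = 0.499). STARD4, a cytosolic carrier of sterol and a known SREBP2 target, fell. It had 19.5, 19.3 and 18.7 CPM in control and 14.3, 15.1 and 13.9 CPM with TKT, with no overlap between the groups. The log2 fold change was -0.41 (SE 0.0908, adjusted p = 0.00527).

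The sequences before the start sites of SREBF1, INSIG1 and SCD, the desaturase described below, are shown because these known SREBP targets had, FADS2 apart, the smallest p-values of the group among genes with a RefSeq promoter window. They are the 250 bases before the RefSeq start in GRCh38.p14, read 5′ to 3′ on the strand of the gene. Capitals mark matches on either strand to the sterol regulatory element TCACNCCAC, the NF-Y box CCAAT, the E-box CACGTG and the Sp1 box GGGCGG. SREBF1 is given from chr17:17836987-17837236 (minus strand), INSIG1 from chr7:155297628-155297877 (plus strand) and SCD from chr10:100346983-100347232 (plus strand).
SREBF1: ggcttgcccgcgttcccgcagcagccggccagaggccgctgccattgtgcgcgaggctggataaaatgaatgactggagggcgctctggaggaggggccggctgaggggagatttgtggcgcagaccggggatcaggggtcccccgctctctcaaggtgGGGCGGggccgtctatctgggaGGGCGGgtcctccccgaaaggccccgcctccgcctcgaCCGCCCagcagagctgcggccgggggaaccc
INSIG1: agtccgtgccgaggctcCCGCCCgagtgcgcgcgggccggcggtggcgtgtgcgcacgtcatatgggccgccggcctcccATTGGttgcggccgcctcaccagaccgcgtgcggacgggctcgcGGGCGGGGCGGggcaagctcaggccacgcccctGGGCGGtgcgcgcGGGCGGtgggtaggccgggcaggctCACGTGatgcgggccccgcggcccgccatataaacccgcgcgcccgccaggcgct
SCD: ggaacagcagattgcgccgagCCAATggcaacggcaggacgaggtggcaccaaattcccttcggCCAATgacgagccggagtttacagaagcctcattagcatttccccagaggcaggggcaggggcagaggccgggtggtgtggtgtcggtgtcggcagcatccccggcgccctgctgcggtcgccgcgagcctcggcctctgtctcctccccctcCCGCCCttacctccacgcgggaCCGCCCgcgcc

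SREBF1 shows 3 Sp1 boxes and no NF-Y box in this stretch, its only window, which lies at the 5′ end of the gene span. Which of SREBP1a and SREBP1c starts there was not determined, and any other start of SREBF1 was not searched. INSIG1 shows 5 Sp1 boxes, 2 of which overlap by 1 base, an NF-Y box on the opposite strand and an E-box, and SCD shows 2 NF-Y boxes and 2 Sp1 boxes. None of these stretches holds the sterol regulatory element in the form searched. A RefSeq window of 250 bases before to 50 bases after a start was at hand for 30 of the 34 genes, and a gene was counted where any of its windows held a match. The NF-Y box was found in 22 of the 30 genes (73.3%) against 39.7% of all genes with a window, in 15 of the 17 genes that fell and in 7 of the 13 others. The Sp1 box was found in 28 of the 30, 16 of them among the genes that fell, against 48.3% of all genes. The E-box was found in 5 of the 30, 3 of which fell, against 8.77% of all genes. The sterol regulatory element was found only in SREBF2 among the 30, against 1.39% of all genes. The shares of all genes cover 27305 genes with a window, whether tested here or not, and genes with several windows had more chances of a match. These are matches of letters in short windows and say nothing of binding.

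In the early sterol pathway, ACAT2, MVK, MVD, IDI1 and FDPS fell, and HMGCS1 and PMVK were not called. HMGCS1, which condenses acetoacetyl-CoA with acetyl-CoA, had 408, 409 and 399 CPM in control and 385, 386 and 399 CPM with TKT. Its log2 fold change was -0.06 (95% interval -0.13 to 0.01, adjusted p = 0.341). ACAT2, the cytosolic thiolase that makes acetoacetyl-CoA, fell from 157, 153 and 163 CPM to 124, 141 and 129 CPM. Its groups did not overlap and its log2 fold change was -0.26 (SE 0.0488, adjusted p = 0.00107).

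MVK, mevalonate kinase, had the largest fall among the early enzymes. MVK had 33.1, 33.6 and 35.7 CPM in control and 24.9, 25.0 and 22.1 CPM in TKT-overexpressing cells. The TKT-overexpressing cultures all lay below the control cultures, and the level was 29.7% below control (log2 fold change -0.51, SE 0.0739, adjusted p = 7.84e-05). PMVK, the kinase of the next step, had 43.8 to 52.5 CPM in control and 42.5 to 46.8 CPM with TKT, and its overlapping groups were not called (log2 fold change -0.13, adjusted p = 0.256). Without control culture 2, the lowest control for PMVK, its adjusted p was 0.0367.

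MVD, the decarboxylase that yields isopentenyl diphosphate, had 96.5, 88.0 and 99.1 CPM in control and 77.6, 78.5 and 72.1 CPM with TKT. It fell with no overlap between the groups (log2 fold change -0.31, SE 0.0552, adjusted p = 6.29e-04). IDI1, the isomerase of isopentenyl diphosphate, had 57.4, 60.6 and 58.3 CPM in control and 46.0, 52.5 and 48.3 CPM with TKT. It fell by 0.26 on the log2 scale (SE 0.0577, adjusted p = 0.00429), which became an adjusted p of 0.0581 when TKT-overexpressing culture 1 was left out. FDPS, farnesyl diphosphate synthase, had 113, 108 and 110 CPM in control and 95.2, 85.6 and 87.6 CPM with TKT. It fell by 0.30 on the log2 scale (SE 0.0506, adjusted p = 4.03e-04), again with every TKT-overexpressing culture below every control culture.

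After farnesyl diphosphate, SQLE, squalene epoxidase, had 81.3, 85.2 and 79.9 CPM in control and 65.7, 68.4 and 62.9 CPM with TKT. SQLE fell with a gap between the groups (log2 fold change -0.32, SE 0.0531, adjusted p = 3.11e-04). LSS, the cyclase that forms lanosterol, had 13.8, 12.2 and 7.66 CPM in control and 7.45, 6.61 and 6.29 CPM with TKT. Control culture 3 lay close to the TKT-overexpressing cultures, and the fall of LSS (log2 fold change -0.72, SE 0.180, adjusted p = 0.0186) had the largest SE of the genes that fell. Its adjusted p lay between 0.0541 and 0.105 without control culture 1 or 2 or without any single TKT-overexpressing culture. FDFT1, squalene synthase, had 18 to 26 counts per culture, where SQLE had 2069 to 2680 in the same libraries. Its log2 fold change of -0.08 had a 95% interval of -0.96 to 0.80, so a change was not detectable at these counts. Why so few reads were counted for FDFT1 was not tested, so its level is uncertain.

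Of the enzymes that turn lanosterol into cholesterol, DHCR7 had the smallest p-value. DHCR7, the reductase of the last step of the Kandutsch-Russell route, lies at chr11:71428193-71452868 on the minus strand. It had 184, 181 and 181 CPM in control and 138, 147 and 133 CPM in TKT-overexpressing cells. The control cultures were nearly equal and far from the TKT-overexpressing cultures, and the level was 23.3% below control (log2 fold change -0.38, SE 0.0436, adjusted p = 2.85e-06). The log2 ratio of DHCR7 to HMGCS1 on the FPKM scale was -1.20, -1.23 and -1.19 in control and -1.53, -1.44 and -1.63 with TKT.

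MSMO1, a sterol methyl oxidase, had 90.8, 101 and 103 CPM in control and 80.7, 78.2 and 85.3 CPM with TKT. It fell by 0.27 on the log2 scale (SE 0.0551, adjusted p = 0.00250). EBP, the sterol isomerase, had 106, 92.3 and 116 CPM in control and 85.7, 89.8 and 80.6 CPM with TKT. EBP fell (log2 fold change -0.30, SE 0.0723, adjusted p = 0.0186), with control culture 2 close to the TKT-overexpressing cultures, and its adjusted p was 0.0662, 0.0682 and 0.102 without control culture 1 and without TKT-overexpressing cultures 1 and 3. LBR, a nuclear membrane protein that also carries sterol reductase activity, had 214, 230 and 214 CPM in control and 190, 188 and 213 CPM with TKT. Its fall was small (log2 fold change -0.16, SE 0.0470, adjusted p = 0.0359), TKT-overexpressing culture 3 was almost at the control level, and the adjusted p was 0.0782, 0.133, 0.182 and 0.151 without control cultures 1 and 2 and without TKT-overexpressing cultures 1 and 2.

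The other tested enzymes of these late steps were not called. TM7SF2, the other sterol reductase, had 53.5 to 55.9 CPM in control and 50.8 to 53.4 CPM with TKT (log2 fold change -0.05, adjusted p = 0.618). HSD17B7 and SC5D had estimates of -0.30 (95% interval -0.51 to -0.09) and -0.22 (95% interval -0.37 to -0.06) with adjusted p-values of 0.0661 and 0.0638. Without control culture 3, the lowest control for SC5D, its adjusted p was 0.0127. CYP51A1, the lanosterol demethylase, had 217 to 321 counts per culture with overlapping groups (log2 fold change -0.04, 95% interval -0.33 to 0.25). FDPS, HSD17B7 and CYP51A1 have pseudogene copies, and how reads shared with them were counted is not given in the sources used here, so their values are uncertain to that extent.

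**Figure D2:**
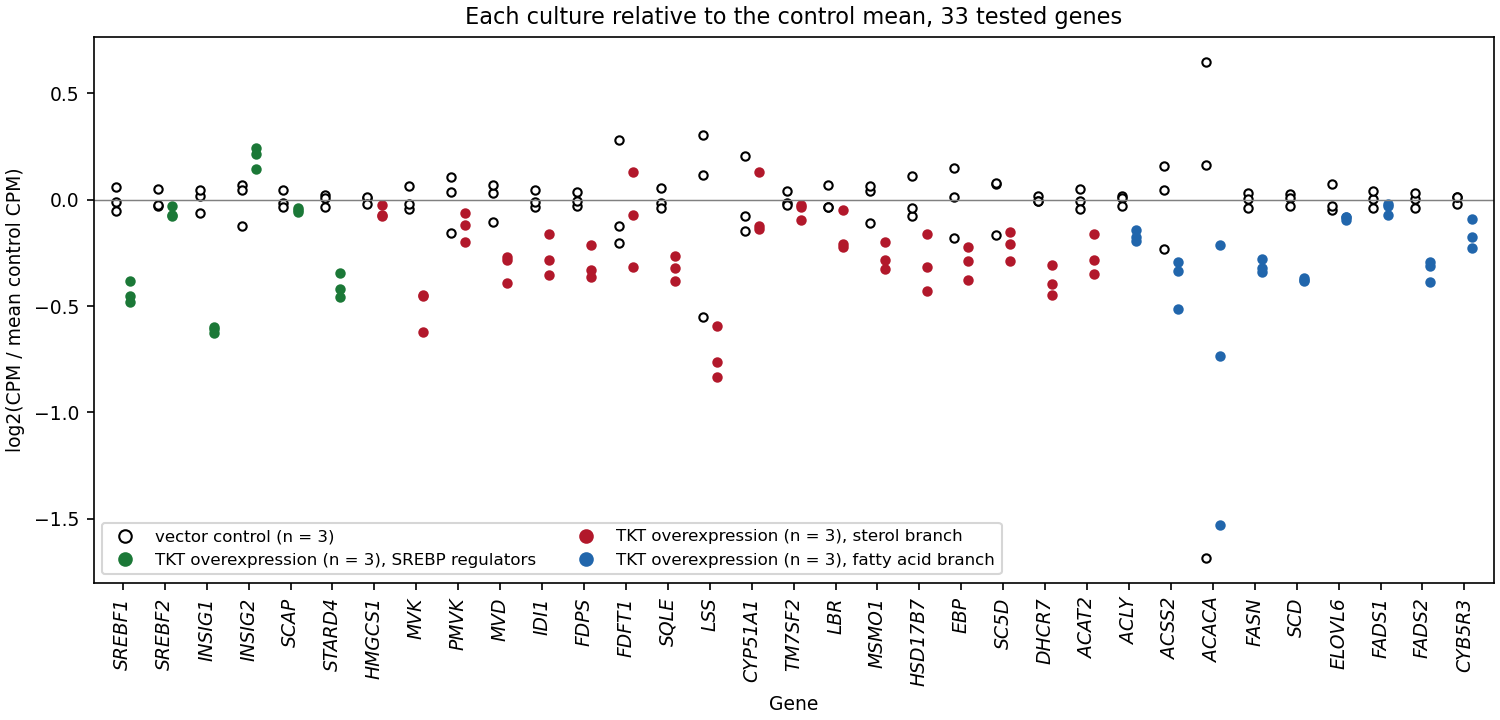
For each of the 33 tested genes, the points give the log2 of each culture's CPM over the mean control CPM, with open circles for the 3 control cultures and filled circles, coloured by branch, for the 3 TKT-overexpressing cultures. INSIG1, SREBF1, DHCR7, FASN and SCD show a gap between the groups that is wider than the spread within them, while ACACA and LSS spread widely among the control cultures.

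In the fatty acid branch, the most abundant gene of the group, SCD, fell. SCD, at chr10:100347124-100364834 on the plus strand, encodes the desaturase that turns stearoyl-CoA into oleoyl-CoA. It had 1729, 1708 and 1662 CPM in control and 1318, 1302 and 1308 CPM in TKT-overexpressing cells. The TKT-overexpressing cultures differed from each other by far less than from the control cultures, and the log2 fold change was -0.38 (SE 0.0341, adjusted p = 9.84e-08), a level 23.0% below control. On the FPKM scale SCD went from 322 ± 7.69 to 249 ± 3.86 (SD, n = 3 each).

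FASN, the synthase that builds palmitate, lies at chr17:82078333-82098332 on the minus strand. FASN had 1007, 989 and 960 CPM in control and 811, 778 and 789 CPM with TKT. The groups were well apart, and the log2 fold change was -0.31 (SE 0.0349, adjusted p = 2.02e-06). ACLY, which supplies cytosolic acetyl-CoA from citrate, had 491, 489 and 476 CPM in control and 429, 440 and 424 CPM with TKT. ACLY fell by 0.17 on the log2 scale (SE 0.0344, adjusted p = 0.00223), a smaller change with no overlap between the groups.

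ACSS2, which makes acetyl-CoA from acetate, had 16.1, 12.2 and 14.8 CPM in control and 11.7, 11.4 and 10.1 CPM with TKT. It fell (log2 fold change -0.38, SE 0.116, adjusted p = 0.0386), with control culture 2 near the TKT-overexpressing cultures. Its adjusted p lay between 0.0609 and 0.211 when control culture 1, control culture 3 or any single TKT-overexpressing culture was left out. ACACA, the acetyl-CoA carboxylase that makes malonyl-CoA, had 415, 287 and 88 counts in control and 269, 156 and 96 counts with TKT. The cultures of each group differed several-fold and the groups overlapped, so its log2 fold change of -0.72 had a 95% interval of -2.71 to 1.26 and a change was not detectable.

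FADS1 and FADS2 encode desaturases of polyunsaturated fatty acids and lie on opposite strands of chromosome 11, FADS1 at chr11:61799625-61829318 within the span of FADS2 at chr11:61792980-61867354. FADS2 had 435, 422 and 443 CPM in control and 348, 354 and 331 CPM in TKT-overexpressing cells. The groups were far apart and FADS2 fell by 0.33 on the log2 scale (SE 0.0369, adjusted p = 2.05e-06). FADS1 had 221, 214 and 227 CPM in control and 217, 216 and 210 CPM with TKT. Its groups overlapped and the log2 fold change was -0.04 (95% interval -0.12 to 0.04, adjusted p = 0.577). The log2 ratio of FADS2 to FADS1 on the FPKM scale was 0.93, 0.93 and 0.92 in control and 0.64, 0.66 and 0.61 with TKT. Whether counting used the strand is not given in the sources used here, so reads where these genes overlap cannot be told apart.

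ELOVL6, which elongates palmitate to stearate, had 49.7, 54.1 and 50.3 CPM in control and 48.6, 48.6 and 48.1 CPM with TKT. The groups did not overlap, but the log2 fold change of -0.09 (95% interval -0.20 to 0.03, adjusted p = 0.383) was not called. CYB5R3, the cytochrome b5 reductase that passes electrons to desaturases and sterol oxidases, had 151, 154 and 154 CPM in control and 136, 144 and 131 CPM with TKT. It fell by 0.16 on the log2 scale (SE 0.0447, adjusted p = 0.0205), and the adjusted p was 0.0596, 0.0861 and 0.0954 without control culture 3 and without TKT-overexpressing cultures 1 and 3.

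**Figure D3:**
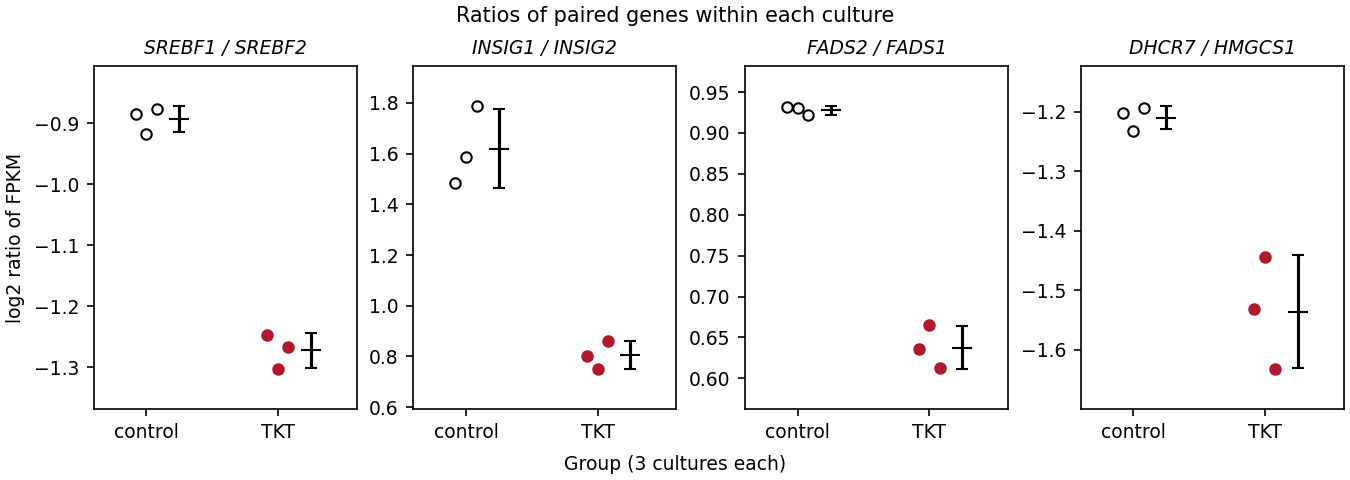
Log2 ratios of FPKM between paired genes within each culture are plotted for 3 control (open) and 3 TKT-overexpressing (filled) cultures, with the mean and SD as bars; each panel has its own vertical axis that does not start at 0. In all 4 pairs the TKT-overexpressing cultures lie below the control cultures. In the means the gap is 0.38 for SREBF1 to SREBF2, 0.81 for INSIG1 to INSIG2, 0.29 for FADS2 to FADS1 and 0.33 for DHCR7 to HMGCS1. Each pair sets a gene that fell over 1 that was not called, chosen after the values were seen. The shared direction therefore follows from the choice of pairs.

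Each branch was lower in each TKT-overexpressing culture. Relative to the control mean of each gene, the median of the sterol branch was -0.28, -0.22 and -0.30 on the log2 scale in the TKT-overexpressing cultures. For the fatty acid branch these medians were -0.22, -0.29 and -0.32, and for the regulators, STARD4 included, -0.22, -0.21 and -0.27. In every branch each of the TKT-overexpressing cultures was below each of the control cultures, whose medians lay between -0.03 and 0.04. The summed CPM with TKT was 86.2% of control for the sterol branch, 81.3% for the fatty acid branch and 89.9% for the regulators. Whether the branches differed from each other was not tested.

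**Figure D4:**
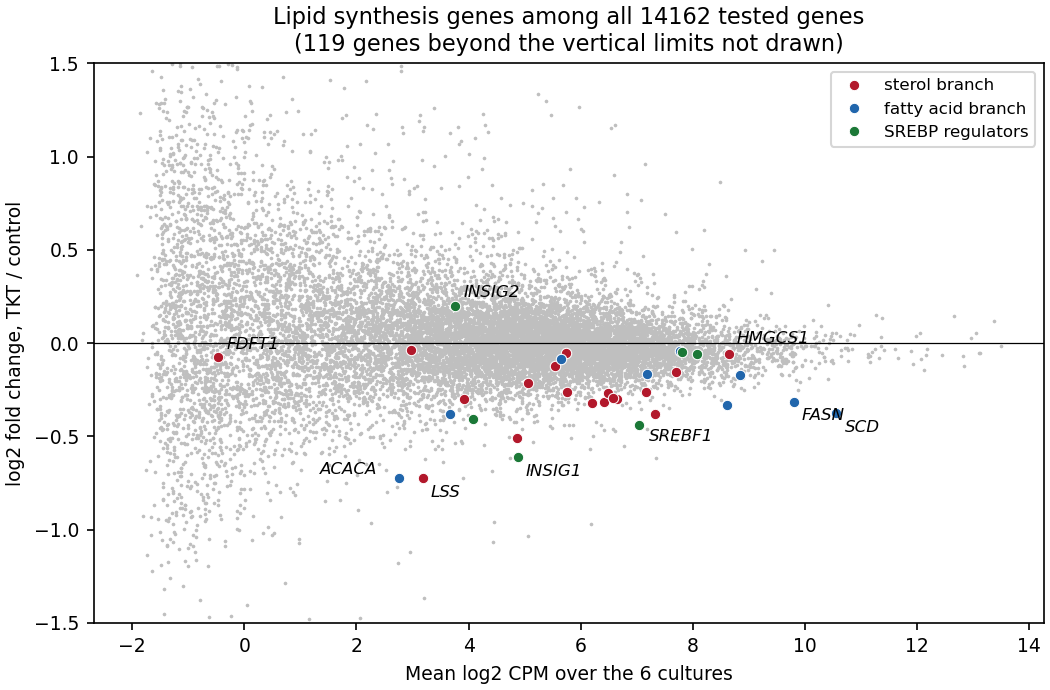
Each grey point is a tested gene, placed by its mean log2 CPM over the 6 cultures and its log2 fold change with TKT, and coloured points are the genes of cholesterol and fatty acid synthesis; 119 genes beyond the vertical limits are not drawn. The coloured points lie mostly below 0 at all levels of expression, with SCD farthest to the right and FDFT1 farthest to the left.

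Other genes of lipid synthesis and handling are given as counts, beside the 4.94% of all tested genes that fell and the 5.69% that rose. Of the 79 tested, 11 fell and 5 rose, and their median log2 fold change was -0.07. Whether they differed from the genes above was not tested. Among 17 genes of SREBP escort and cleavage and of INSIG turnover, 3 fell and 1 rose (median -0.05). TRIB1, a pseudokinase tied to hepatic lipogenesis, rose from 37.9 to 39.3 CPM in control to 49.0 to 52.2 CPM with TKT (log2 fold change 0.40, adjusted p = 4.87e-05). MBTPS1, the protease that makes the first cut in SREBP, fell by 0.14 on the log2 scale (adjusted p = 0.0360) and ERLIN1, a protein of the endoplasmic reticulum that binds the SREBP complex, by 0.13 (adjusted p = 0.0231).

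Among 30 tested genes of fatty acid activation, elongation and glyceride synthesis, 7 fell and 3 rose (median -0.09). ACSL1, an acyl-CoA synthetase, rose from 26.5, 27.6 and 31.1 CPM in control to 40.7, 43.8 and 40.9 CPM with TKT (log2 fold change 0.56, adjusted p = 9.86e-06). GPAM, the mitochondrial acyltransferase that starts glycerolipid synthesis, fell by 0.36 on the log2 scale (adjusted p = 3.11e-04), and SLC25A1, the citrate carrier that feeds ACLY, by 0.27 (adjusted p = 6.29e-04). Of 20 tested genes of sterol uptake, trafficking, esterification and efflux, 1 fell and none rose (median -0.10), a share near that of all tested genes. That gene was ABCA1, the cholesterol exporter, with a log2 fold change of -0.21 (adjusted p = 0.0196). At an unadjusted p under 0.05, 6 of the 20 fell and 1 rose, against 1695 and 1671 of all 14162 tested genes. The estimates were below 0 for 16 of the 20, against 7050 of all tested genes. Of 12 genes of isoprenoid side branches, FNTA, a prenyltransferase subunit, rose (log2 fold change 0.20, adjusted p = 0.0169) and none fell, with none at an unadjusted p under 0.05 for a fall either. With 1 gene called, this list too is near the share over all tested genes.

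Pathway names in the deposited table give further counts, beside the 4.94% of all tested genes that fell and the 5.69% that rose. By these names, 21 tested genes belong to terpenoid backbone biosynthesis, of which 8 fell and 1, FNTA, rose (median -0.08). For steroid biosynthesis 6 of 18 tested genes fell and 1 rose (median -0.13). The gene that rose, CYP27B1, which activates vitamin D, had a log2 fold change of 0.60 (adjusted p = 0.0475). In fatty acid biosynthesis 4 of 12 tested genes fell and 1, ACSL1, rose (median -0.13). In biosynthesis of unsaturated fatty acids 3 of 24 fell and 1, the elongase ELOVL7, rose (median -0.09). In fatty acid elongation 1 of 23, HADH, fell and 2, ELOVL7 and ACAA2, rose (median -0.07), near the shares of all tested genes. CYP27B1, ELOVL7, HADH and ACAA2 are named after their values were seen. Of the genes of the group, 7 carry the terpenoid, 12 the steroid and 2 the fatty acid biosynthesis name. The unsaturated fatty acid name is carried by 4 of them and the elongation name by 1. These counts thus share genes with those above and are not independent of them. In the terpenoid and fatty acid biosynthesis lists more genes fell (8 and 4) than belong to the group (7 and 2), so some were other genes.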

How the data were processed

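Total RNA was sequenced as paired-end reads of 150 bases from 3 TKT-overexpressing and 3 vector control cultures. The authors trimmed reads with fastp 0.22.0 and aligned them with HISAT2 2.1.0 to hg38, per the submitters' processing notes, and counted them with featureCounts, whose annotation, strand and multi-mapping options are not given in the sources used here. They deposited raw counts per gene symbol and, in a second table, FPKM values. Pathway and GO names in the deposited table were used only for the 5 pathways named. No per-sample column was left unused (0 columns).

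Counts were fitted in R 4.3.3 with edgeR 4.0.16 (filterByExpr with a minimum count of 10, TMM, robust quasi-likelihood test, Benjamini-Hochberg over 14162 genes), with a common biological coefficient of variation of 0.113. Between libraries, the chi-square per degree of freedom over gene counts was 7.24 to 9.99 within groups and 31.1 to 38.6 between groups, so no pair looked like a copy. Precision comes from the spread of 3 cultures per group, which edgeR moderates for each gene with the spread over all tested genes. An exact permutation test could reach no p under 0.1. CPM are TMM-scaled counts, and ratios and levels per length use the deposited FPKM. All genes of the group are named, with values in every culture for those with an adjusted p under 0.05 and for the regulators, and of each other lipid list at most the 3 genes with the smallest p. The genes, lists, motifs and tests were chosen with earlier results of these data known, and the ratios, the pathway names, CYP27B1, ACAA2, ELOVL7 and HADH after the values were seen. Gene spans are from GENCODE 29 and promoters from RefSeq (GRCh38.p14). FADS2, with 2 overlapping RefSeq windows, was left out of the printed sequences. Alternatives were DESeq2 1.42.0, limma 3.58.1 on log2(FPKM + 1) and log2(FPKM + 0.1), other scalings and filters, the replicate number as a block, and each culture left out. The scripts were tested on simulated counts.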

Additional observations from a re-analysis of the deposited data

How the results depend on the processing

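The count of 20 genes of the group that fell was 20 with DESeq2, upper-quartile scaling or at least 50 counts in 3 libraries, 19 with library totals alone, 21 without a filter on low counts, and 14 (without TKT-overexpressing culture 1) to 19 with each culture left out. It was 12 with limma on log2(FPKM + 1), 12 with limma on log2(FPKM + 0.1), and 0 at an absolute log2 fold change over 1. No gene of the group rose in any of these, and 1 had an unadjusted p under 0.05 for a rise with upper-quartile scaling and with limma. Of the 20 genes, 12 had an adjusted p under 0.05 in all 14 other fits, namely MVK, MVD, FDPS, SQLE, DHCR7, SREBF1, INSIG1, STARD4, ACLY, FASN, SCD and FADS2. The other 8 lost it in at least 1 fit, and 0 changed sign. The median of the fatty acid branch was -0.22 with limma on log2(FPKM + 1) and -0.33 to -0.24 with each culture left out, lowest in size without control culture 1. That of the regulators was -0.18 with limma on log2(FPKM + 1). With each culture left out, the log2 fold change of FDFT1 lay between -0.19 and 0.0833 and that of CYP51A1 between -0.13 and 0.073. Over all genes, 1505 were called, against 325 and 387 with limma on log2(FPKM + 1) and log2(FPKM + 0.1), 791 without TKT-overexpressing culture 1 and 881 without control culture 1. The causes were not tested. Culture numbers did not pair the samples (correlations of -0.0019, -0.025 and 0.016 between same-numbered deviations, and not every sample correlated best with its own number). With the replicate block, 697 genes were called in all and 16 genes of the group fell, without LBR (adjusted p = 0.122), EBP (0.0651), ACSS2 (0.1003) and CYB5R3 (0.0885). The few counts of FDFT1, the spread of ACACA between cultures and the wide interval of CYP51A1 limit what could be detected.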
